A study of Mus musculus with 6 samples.

Results

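SOX factors are transcription factors that bind DNA through an HMG box, a domain that bends the helix, and many of them act beside a POU factor on neighbouring DNA sites. The data described here are the counts of 10 SOX genes in WT and Oct6 KO epiblast-like cells (EpiLCs), and OCT6 (POU3F1) is itself a POU factor. The genes are Sox1, Sox2 and Sox3 of the SoxB1 subgroup, Sox21 of SoxB2, Sox4, Sox11 and Sox12 of SoxC, Sox5 and Sox13 of SoxD, and Sox15 of SoxG. They were chosen by name, with earlier results of these data known. They were found by matching Ensembl identifiers, without the version number, to GENCODE release M39. Gene positions, exon numbers and exon lengths are from that release. Its versions of Sox5, Sox12, Sox13 and Sox15 differ from those that were counted, whose numbers are printed below. The SOX genes make up 10 of the 55416 genes in the count table. All 10 had a count in at least 1 library, and 9 passed the filter on low counts, Sox5 being the exception.

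EpiLCs model the formative state between naïve and primed pluripotency. WT and KO mouse embryonic stem cells (mESCs) were taken from 2i and LIF and differentiated for 48 h in N2B27 with KSR, bFGF and Activin A on fibronectin, and total RNA was sequenced from 3 biological replicates of each genotype. The WT genotype was 46C itself, a line in which GFP is placed under the control of Sox1. The KO cells were 1 clone of that line with a homozygous frameshift insertion in Oct6, so that the GFP reporter is shared by both genotypes, and effects of the clone and of the genotype cannot be told apart. The counts on Sox1 do not separate the reporter allele from the other.

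In the pluripotent epiblast SOX2 works with OCT4, and SOX3 can stand in for part of its function. SOX1 appears as cells enter the neural lineage, where all 3 SoxB1 proteins maintain progenitors and SOX21 counteracts them. SoxC proteins act in neuronal and mesenchymal differentiation, SoxD proteins lack a transactivation domain of their own, and SOX15 is found in mESCs, where it recognises DNA much as SOX2 does.

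The libraries held between 10995505 and 14680930 counts. Levels are given as CPM, the counts relative to the library total after TMM scaling, which aligns the bulk of genes between libraries and used factors from 0.974 to 1.02. A gene was tested if it had about 10 counts or more in at least 3 libraries, as set by the filter of edgeR. All 8 markers of an epiblast list passed the filter, which shows that they were detected and does not test the state of the cells. Among them, Pou5f1 (OCT4) stood at 898 ± 60.0 CPM (SD, n = 3) in WT and 787 ± 36.8 CPM in KO cells. The counts of Oct6 (Pou3f1) itself were 142 ± 19.4 CPM (SD, n = 3) and 132 ± 7.59 CPM (edgeR adjusted p = 0.574), and do not tell an RNA with the insertion from one without it.

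To see which SOX genes hold the octamer, the DNA site of POU factors, the stretch from 250 bases before to 50 bases after each RefSeq start (GRCm38.p6) was searched for ATGCAAAT on both strands, a search added after the data had been seen. The RefSeq table has 9 of the 10 genes, without Sox3. Sox1 and Sox12 held the octamer, against 1.74% of all 32851 promoters of 27025 genes, and both matches read in the direction of the gene. The windows of both matches are shown. Of the 3 SOX genes that fell in KO EpiLCs, Sox15 held no octamer in this stretch. A link between the octamer and the change of a gene was not tested. Capitals mark the octamer, and positions come from an exact match of each window to GRCm39:
Sox1 (chr8:12445526-12445555, plus strand): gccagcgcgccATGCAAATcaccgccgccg
Sox12 (chr2:152240143-152240172, minus strand): gcgattgggagATGCAAATgctgagttctc
The Sox1 match starts 18 bases after the RefSeq start and lies inside the single GENCODE exon of the gene, whereas the Sox12 match starts at position −195 from the RefSeq start and lies upstream of the GENCODE gene. The SOX motif, searched as CATTGTT or CTTTGTT on both strands, was in 9.36% of all promoters and in none of the 9 SOX promoters. A match describes letters in the window and was not tested as a binding site.

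To compare one SOX gene with another, CPM were divided by the length of the exons in kb. Sox2 was the most abundant in both genotypes, with 59.7 CPM per kb in WT and 80.1 in KO EpiLCs, followed by Sox4 with 16.6 and 16.5. In WT EpiLCs Sox12 came next with 4.87, then Sox3 with 3.84, Sox11 with 3.80, Sox15 with 2.69, Sox13 with 0.971, Sox1 with 0.757 and Sox21 with 0.241 CPM per kb. Neighbours in this order had separate ranges over the 3 libraries except Sox12 and Sox3, and Sox3 and Sox11. In KO EpiLCs Sox11 was in the third place with 7.01 CPM per kb, ahead of Sox3 with 4.69 and Sox12 with 3.60. Below them stood Sox13 with 1.29, Sox15 with 1.21, Sox1 with 0.219 and Sox21 with 0.216, and the ranges of Sox11 and Sox3, Sox3 and Sox12, Sox13 and Sox15, and Sox1 and Sox21 overlapped.

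**Figure D1:**
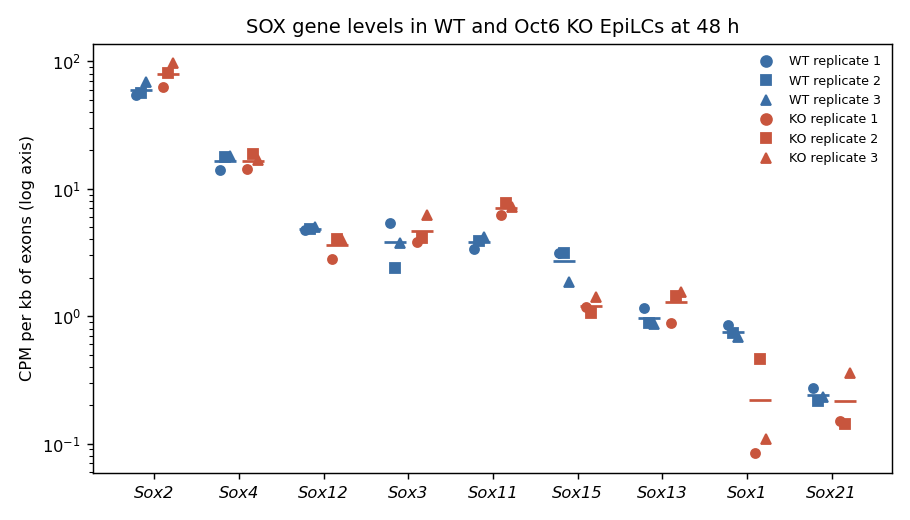
CPM per kb of exons (log axis) of 9 SOX genes, one symbol per library in WT (blue) and KO (red) EpiLCs and a line at each group mean. Sox2 stands above the others in both genotypes, Sox11 is higher and Sox12, Sox15 and Sox1 are lower in every KO library than in any WT library.

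WT and KO EpiLCs were compared to ask which SOX genes differed with the Oct6 genotype at 48 h. Sox11 and Sox2 rose in KO EpiLCs, Sox1, Sox15 and Sox12 fell, and Sox3, Sox4, Sox13 and Sox21 did not pass the test. Of the 9 genes tested, 5 thus had an edgeR adjusted p below 0.1, the study's threshold, and 24.3% of the 15746 genes tested did so. At this threshold 11.8% of all genes were higher and 12.5% lower in KO cells. The additional limit of 1 on the absolute log2 fold change was reached by Sox1 and Sox15, and by 6.21% of all genes. The KO and WT libraries did not overlap for Sox1, Sox11, Sox12 and Sox15, which is 4 of 9 against 33.7% of all genes. Because the SOX genes were chosen with earlier results of these data known, these shares are a description. An excess over all genes was not tested. The median log2 fold change of the 9 genes was −0.0055, and that of all genes 0.0014.

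**Figure D2:**
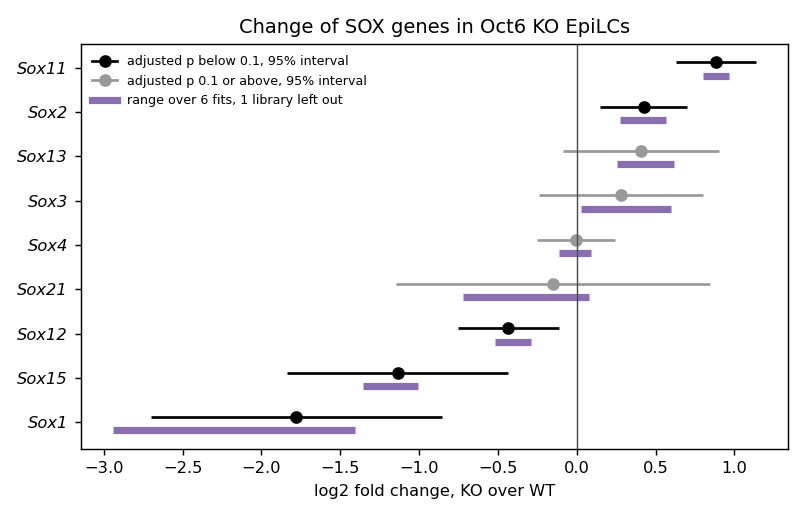
Log2 fold change (KO over WT) of the 9 tested SOX genes with the 95% interval, in black where the adjusted p was below 0.1, and the range over 6 fits that each left out 1 library (purple). Sox11 and Sox2 lie above 0 and Sox12, Sox15 and Sox1 below it, and the intervals of Sox13, Sox3, Sox4 and Sox21 include 0.

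Among the SoxB1 genes, Sox2 (ENSMUSG00000074637.8, chromosome 3 of GRCm39, 34704554 to 34706610, a single exon) had 111, 116 and 141 CPM in the WT libraries, in replicate order, against 130, 167 and 198 CPM in the KO libraries. The groups overlapped, KO replicate 1 lying below WT replicate 3, while in all 3 same-numbered pairs the KO library was the higher. The log2 fold change was 0.42 (SE 0.13, adjusted p = 0.0283, quasi-likelihood test of edgeR with Benjamini-Hochberg correction over all genes), a fold of 1.34. Sox2 no longer passed without WT replicate 1 (log2 fold change 0.35, edgeR adjusted p = 0.111) or without KO replicate 3 (0.27, edgeR adjusted p = 0.206). It passed in the edgeR fit blocked on replicate number (0.41, SE 0.090, adjusted p = 8.37e-04). Over its 13 alternatives, edgeR and DESeq2 adjusted p ran from 8.37e-04 to 0.206.

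Sox3 (ENSMUSG00000045179.10, X chromosome, 59934972 to 59937036, a single exon), a marker of the formative and early neural epiblast, did not pass the test. It had 11.1, 4.93 and 7.71 CPM in the WT libraries, in replicate order, against 7.86, 8.41 and 12.8 CPM in the KO libraries. WT replicate 2 was the lowest and KO replicate 3 the highest of the 6 libraries, and the KO library was lower in pair 1 and higher in pairs 2 and 3. The log2 fold change was 0.28 with a 95% interval from −0.24 to 0.80 (edgeR adjusted p = 0.497). Without WT replicate 2 the value was 0.041 (SE 0.24), without KO replicate 3 it was 0.030 (SE 0.27), and without WT replicate 1 it was 0.60, none of which passed.

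Sox1 (ENSMUSG00000096014.2, chromosome 8, 12445295 to 12450126, a single exon), an early marker of the neural lineage, had 55, 39 and 49 counts in the WT libraries, in replicate order, against 5, 29 and 7 counts in the KO libraries. In CPM this was 4.10, 3.56 and 3.31 against 0.405, 2.24 and 0.527. All KO libraries were below all WT libraries, and KO replicate 2 stood apart from the other KO libraries. On the log2 scale the change was −1.78 with a 95% interval from −2.70 to −0.85 (SE 0.44, edgeR adjusted p = 0.00733). It was −2.94 without KO replicate 2 and −1.41 without KO replicate 1, with adjusted p between 1.21e-05 and 0.0514 over its 12 alternatives, in all of which it passed.

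The gene lies in an intron of the long noncoding RNA Sox1ot, on the same strand and with no shared exon bases. Sox1ot had counts of its own. The libraries held total RNA, so reads of unspliced Sox1ot could be within the Sox1 counts, and their number was not tested. Sox1ot had 34, 25 and 32 counts in the WT libraries and 5, 19 and 15 in KO replicates 1 to 3, again with every KO library below every WT library. Its mean fell from 2.33 ± 0.191 CPM (SD, n = 3) to 1.00 ± 0.542 CPM, which is −1.20 in log2 terms (SE 0.40, edgeR adjusted p = 0.0432). Without KO replicate 1 the value was −0.84 and the adjusted p 0.183. The noncoding RNA Sox2ot, which surrounds Sox2 in the same manner, had 2.37 ± 0.738 CPM in WT and 1.65 ± 0.739 CPM in KO EpiLCs. Its edgeR adjusted p of 0.379 did not pass while Sox2 rose. Reads of unspliced Sox2ot could likewise be within the Sox2 counts, which was not tested.

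**Figure D3:**
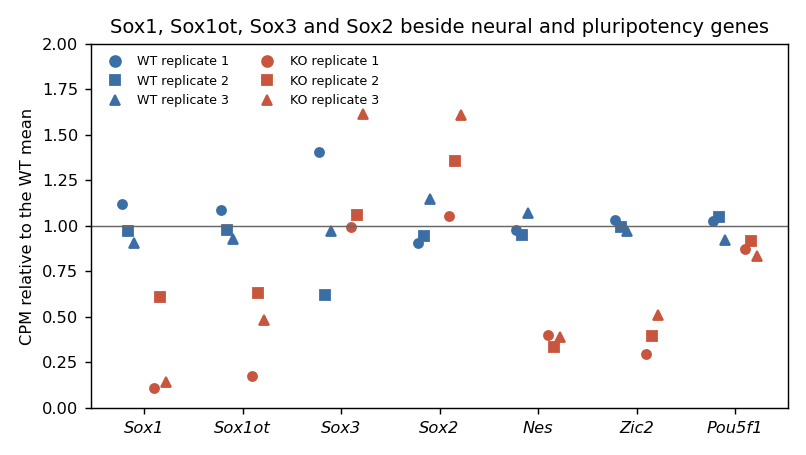
CPM of Sox1, Sox1ot, Sox3, Sox2, Nes, Zic2 and Pou5f1 in each library, relative to the mean of the WT libraries, which is the line at 1. The KO libraries of Sox1, Sox1ot, Nes and Zic2 lie below all WT libraries, as do those of Pou5f1 by a smaller distance, and those of Sox2 and Sox3 overlap them.

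Within a library, the share of each gene in the summed SoxB1 level per kb does not depend on the scaling between libraries. Sox2 made up 92.8% ± 2.75 (SD, n = 3) in WT and 94.2% ± 0.430 in KO EpiLCs. Sox3 made up 6.02% ± 2.59 and 5.50% ± 0.665. The share of Sox1 was 1.41%, 1.23% and 0.940% in WT replicates 1 to 3 and 0.125%, 0.541% and 0.106% in KO replicates 1 to 3, so that all KO values were lower. The exact two-sided permutation test gave p = 0.1 for Sox1, the smallest value that 3 libraries against 3 allow, and 0.7 and 0.9 for Sox2 and Sox3. This test, here and for SoxC below, exchanged libraries without regard to replicate number, and a version within pairs was not run. The log2 ratio of Sox2 to Sox3 was 4.03 ± 0.637 and 4.11 ± 0.186 (exact permutation p = 0.9). Over the 11 measures of this kind, including those of SoxC below, the adjusted value for Sox1 was 0.183.

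Sox21 (ENSMUSG00000061517.9, chromosome 14, 118470644 to 118474442), the SoxB2 gene, was low, with 14, 9 and 13 counts in the WT libraries, in replicate order, against 7, 7 and 18 counts in the KO libraries. KO replicate 3 was the highest library and the other KO libraries the lowest. The log2 fold change of −0.15 had a 95% interval from −1.15 to 0.84 (edgeR adjusted p = 0.875), and a difference within this interval is not excluded by these counts. The value was −0.72 without KO replicate 3, 0.076 without KO replicate 2 and 0.047 without KO replicate 1.

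The SoxC genes parted. Sox11 (ENSMUSG00000063632.7, chromosome 12, 27384263 to 27392573, a single exon) had 27.8, 32.4 and 34.5 CPM in the WT libraries, in replicate order, against 51.4, 64.2 and 59.3 CPM in the KO libraries. Each KO library exceeded each WT library, and the spread within a genotype was small against the gap. The change of 0.89 on the log2 scale (SE 0.12, edgeR adjusted p = 4.24e-05) was a fold of 1.85. It stayed between 0.80 and 0.97 over 13 alternatives and passed in all of them.

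Sox12 (ENSMUSG00000051817.9, chromosome 2, 152235531 to 152239983, a single exon) moved the other way, with 21.2, 21.5 and 22.3 CPM in the WT libraries, in replicate order, against 12.6, 17.9 and 17.7 CPM in the KO libraries. The WT libraries were nearly level and all KO libraries were lower, KO replicate 1 the most. KO over WT this was −0.43 in log2 (SE 0.15, edgeR adjusted p = 0.0533). It was −0.29 without KO replicate 1 (edgeR adjusted p = 0.245) and −0.41 without WT replicate 3 (edgeR adjusted p = 0.118), neither of which passed, and the edgeR fit blocked on replicate number gave an adjusted p of 0.0154.

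Sox4 (ENSMUSG00000076431.5, chromosome 13, 29132902 to 29137696, a single exon), the most abundant SoxC gene, had 67.8, 84.5 and 86.3 CPM in the WT libraries, in replicate order, against 68.1, 89.3 and 80.3 CPM in the KO libraries. The libraries of both genotypes covered the same range, with replicate 1 the lowest in each. Its log2 fold change was −0.0055 with a 95% interval from −0.25 to 0.24 (edgeR adjusted p = 0.983).

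The composition of the SoxC subgroup was examined after these values had been seen. Sox11 made up 15.0%, 14.8% and 15.3% of the summed SoxC level per kb in WT replicates 1 to 3 and 26.7%, 25.4% and 25.6% in KO replicates 1 to 3. Sox12 went from 19.4% ± 1.73 (SD, n = 3) to 13.2% ± 1.05, and Sox4 from 65.6% ± 1.74 to 60.9% ± 0.638. The log2 ratio of Sox11 to Sox12 was −0.36 ± 0.13 in WT and 0.97 ± 0.15 in KO EpiLCs, Sox11 being below Sox12 in each WT library and above it in each KO library. Each of these differences had an exact permutation p of 0.1, the smallest possible, and 0.183 after adjustment over 11 measures. The summed SoxC level was 25.3 ± 2.64 CPM per kb in WT and 27.1 ± 3.63 in KO EpiLCs (exact permutation p = 0.4).

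**Figure D4:**
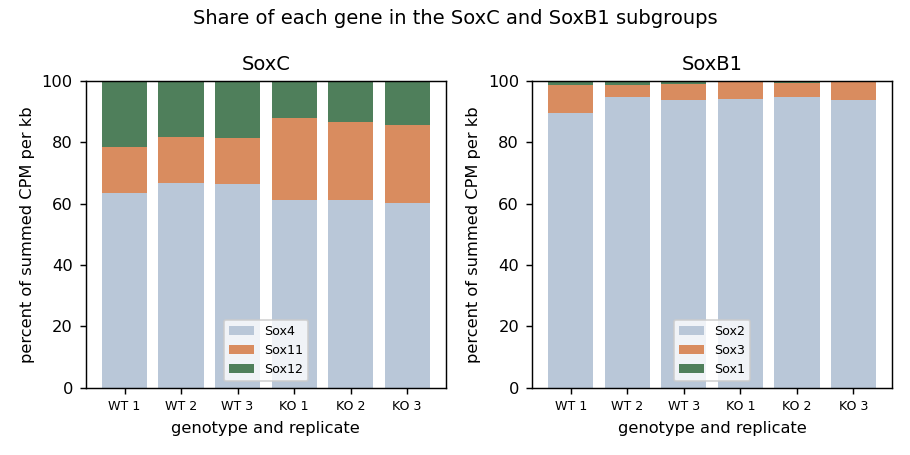
Percent of the summed CPM per kb taken by each gene of SoxC (left) and SoxB1 (right) in each of the 6 libraries. The Sox11 part of SoxC is between 14.8% and 15.3% in the WT libraries and between 25.4% and 26.7% in the KO libraries, and Sox2 takes most of SoxB1 in each library.

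Of the SoxD genes, Sox13 (ENSMUSG00000070643.12, chromosome 1, 133310039 to 133352222) had 6.05, 4.65 and 4.60 CPM in the WT libraries, in replicate order, against 4.62, 7.56 and 8.12 CPM in the KO libraries. KO replicate 1 lay among the WT libraries and the other KO libraries above them. Its log2 fold change of 0.41 had a 95% interval from −0.087 to 0.90 (edgeR adjusted p = 0.267), and over the fits without 1 library it ran from 0.26 without KO replicate 3 (edgeR adjusted p = 0.602) to 0.62 without KO replicate 1, the one of these 6 fits in which it passed (edgeR adjusted p = 0.0864).

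Sox5 (ENSMUSG00000041540.17, chromosome 6, 143774151 to 144727703) was hardly counted. It had 0, 1 and 0 counts in the WT libraries, in replicate order, against 5, 0 and 0 counts in the KO libraries, and no fold change is given. A count of 0 allows up to 3 counts, which is between 0.203 and 0.274 CPM in these libraries, as far as counting error goes. Sox5 is also the SOX gene on a chromosome with a shifted level, the median log2 fold change of chromosome 6 being −0.40, whereas those of the chromosomes of the other SOX genes ran from −0.041 to 0.065.

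Sox15 (ENSMUSG00000041287.6, chromosome 11, 69545826 to 69547553), the single SoxG gene, had 49, 40 and 32 counts in the WT libraries, in replicate order, against 17, 16 and 22 counts in the KO libraries. In CPM this was 3.66, 3.65 and 2.16 against 1.38, 1.23 and 1.65, and no KO library reached the lowest WT library. Its log2 fold change was −1.13 with a 95% interval from −1.83 to −0.43 (SE 0.33, edgeR adjusted p = 0.0217), and it passed in all 13 alternatives, with values from −1.36 to −1.01. Sox15 shares 31 exon bases with Mpdu1 on the opposite strand, which had 79.4 ± 10.9 CPM (SD, n = 3) in WT and 68.9 ± 2.75 CPM in KO EpiLCs (edgeR adjusted p = 0.236).

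No stretch of 100 bases, the read length, was shared between the transcripts of any pair of the 10 SOX genes, the longest being 48 bases between Sox4 and Sox11 and 45 between Sox1 and Sox3. Genes on the opposite strand share windows of 100 bases with 6 of them. The library kit was stranded, but the strand setting of the counting is not given in the sources used here, and without strand such reads cannot be told apart. For Sox2 the partner is the noncoding RNA Gm64654, which covers 59.9% of the exon and was not analysed here, so how many reads from it are within the Sox2 counts was not tested. Of the partners counted, Etnk2 at Sox13 had 3.62 ± 1.55 CPM (SD, n = 3) in WT and 3.20 ± 0.910 CPM in KO EpiLCs, close to the level of Sox13 itself but with 105 shared exon bases, which is 2% of those of Sox13. At the other loci, A330102I10Rik at Sox4 had 1.75 ± 0.767 CPM in WT and 1.24 ± 0.375 CPM in KO EpiLCs, and Gm14662 at Sox3 and Sox21os1 at Sox21 stayed at or below 8 counts in each library.

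For each changed SOX gene, the genes most like it were sought by the root mean square difference, over the 6 libraries, of log2 CPM relative to the WT mean, among tested genes with an average log2 CPM of at least 1. For Sox11 they were Fstl1, a secreted glycoprotein, at 0.042 and Micall2 at 0.051. For Sox12 they were Hgsnat (0.048) and Dusp1 (0.060), for Sox2 Sgk2 (0.058) and Gm37258 (0.067), and for Sox15 Hmces (0.12) and Ehd3 (0.14). Hmces lies on chromosome 6, whose median log2 fold change was −0.40, and Fstl1 on chromosome 16. The nearest to Sox1 were farther away, Fam13c at 0.42 and Tinagl1 at 0.47. Sox1 had 5, 29 and 7 counts in the KO libraries, and the part of counting error in the distances was not tested. These distances are a description over 6 libraries that share 2 genotypes.

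The other SOX genes were at low levels throughout. Of 10 further genes, among them Sox6, Sox7, Sox8, Sox9, Sox10 and Sox18, the filter left Sox17, an endoderm factor, and it did not pass the test (0.871 ± 0.538 CPM in WT and 1.49 ± 0.961 CPM in KO EpiLCs, edgeR adjusted p = 0.315). The 10 genes together had between 2.39 and 3.47 CPM in WT libraries and between 2.24 and 4.74 CPM in KO libraries, and Sry was at 0 in all of them. Sox17 also marks primitive endoderm, whose 7 markers summed to between 6.39 and 8.43 CPM in WT and between 6.56 and 18.6 CPM in KO libraries. Of the 4 endoderm markers tested, Gata6 (log2 fold change 1.35, edgeR adjusted p = 0.0121) and Pdgfra (0.94, edgeR adjusted p = 0.0991) were higher in KO EpiLCs. Gata6 did not pass without KO replicate 3, at 1.02 with an adjusted p of 0.113 in edgeR, nor did Pdgfra in 6 of its 12 alternatives, among them those omitting replicate 2 or 3 of WT and replicate 1 or 3 of KO EpiLCs.

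OCT4 and SOX2 act together on enhancers of pluripotency genes, and 7 genes with such elements were examined, all of which were tested. Nanog (log2 fold change 0.75, edgeR adjusted p = 1.11e-04) and Fbxo15 (0.37, edgeR adjusted p = 0.0326) were higher in KO EpiLCs, Fgf4, the growth factor of the epiblast, and Lefty1, an inhibitor of Nodal, were lower, and Pou5f1, Utf1 and Zscan10 did not pass. Fgf4 had 307 ± 31.6 CPM (SD, n = 3) in WT and 228 ± 42.2 CPM in KO cells, which is −0.43 in log2 (edgeR adjusted p = 0.0181). Lefty1 had 489 ± 60.6 and 349 ± 53.0 CPM, or −0.48 in log2 (edgeR adjusted p = 0.00623). Pou5f1 was lower in each KO library than in any WT library (log2 fold change −0.19, edgeR adjusted p = 0.187), and it passed in the edgeR fit blocked on replicate number (−0.19, adjusted p = 0.0665) and without WT replicate 3 (−0.25). The median over the 7 genes was −0.011. Without KO replicate 1 Fgf4 did not pass (−0.29, edgeR adjusted p = 0.122), and Fbxo15 did not pass without WT replicate 1 (0.27) or KO replicate 3 (0.26).

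Genes of the early neural ectoderm, where SoxB1 proteins act, were mostly below the filter. Of 14 such genes 3 were tested, and Nes (nestin, an intermediate filament of neural progenitors) and the zinc finger gene Zic2 fell, with log2 fold changes of −1.41 (edgeR adjusted p = 6.7e-07) and −1.32 (edgeR adjusted p = 5.39e-06), while Msi1 had −0.0095. Summed over the 14 genes, the level was between 110.5 and 112.8 CPM in WT and between 42.9 and 54.0 CPM in KO libraries, and Olig2 and Six3 were at 0. Nes and Zic2 carried this sum, the other 12 genes together having 6.97 ± 1.28 CPM (SD, n = 3) in WT and 6.25 ± 1.42 CPM in KO libraries. KO replicate 2, the KO library with the most Sox1, had the fewest counts of Nes (192, 166 and 201 counts in the KO libraries) and lay between the others for Zic2 (240, 337 and 448 counts). Pou3f3, which was below the filter and not tested, had 7, 6 and 6 counts in WT libraries against 1, 1 and 2 counts in KO libraries. It was named after its counts were seen, and the other genes of the list below the filter went in either direction or were at 0.

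Of 7 neuronal genes, in which SoxC proteins are known to act, 5 were tested and Tubb3 (neuronal tubulin) fell, from 32.7 ± 4.45 CPM (SD, n = 3) to 21.4 ± 1.60 CPM. The fall was −0.61 in log2 (SE 0.13, edgeR adjusted p = 0.00298). Stmn2, Elavl3, Elavl4 and Map2 did not pass, though Elavl4 did without KO replicate 2 (0.94, edgeR adjusted p = 0.0882) and Stmn2 without KO replicate 3 (−0.33, edgeR adjusted p = 0.0908). The median over the 5 genes was −0.24, while Sox11 was higher in KO EpiLCs. In bulk RNA, fewer cells of a type and less RNA per cell cannot be told apart, for Sox1 and the neural genes as for the rest.

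Markers of other cells stayed low, though no gene of these lists was at 0 throughout. In the primitive streak list of 6 genes Eomes was the gene tested, and it was higher in KO EpiLCs (log2 fold change 0.87, edgeR adjusted p = 0.00344), the list summing to between 6.29 and 6.57 CPM in WT and between 9.03 and 12.3 CPM in KO libraries. Of the trophoblast list, 2 of 5 genes were tested and Krt7 was lower (−1.01, edgeR adjusted p = 0.0050), with sums from 10.9 to 11.7 and from 6.94 to 8.35 CPM. Of the fibroblast list, 3 of 5 were tested and Thy1 was lower (−1.22, edgeR adjusted p = 0.0175), with sums from 7.94 to 9.93 and from 4.94 to 5.72 CPM. The epiblast list summed to between 2768 and 3070 CPM in WT and between 2751 and 2876 CPM in KO libraries. Of its genes, Sox2, Nanog, Otx2 and Fgf5 passed the test as higher in KO EpiLCs and none passed as lower. The part of these lists in the changes of the SOX genes was not tested.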

How the data were processed

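RNA-seq was performed on WT and Oct6 KO EpiLCs, with 3 libraries of each. After FastQC and trimming in Fastp, the authors aligned reads by two-pass STAR against GRCm39, and deposited raw counts per gene without normalization. The STAR version, annotation release, strand setting and handling of multimapped reads are not given in the sources used here. Of 55416 identifiers, 54749 were named with GENCODE release M39.

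WT and KO libraries were compared by edgeR 4.0.16 under R 4.3.3 (TMM, filterByExpr with a minimum count of 10, quasi-likelihood test on 15746 genes, genotype as the only term, Benjamini-Hochberg adjustment). Standard errors derive from the F statistic. CPM per kb uses the union of GENCODE exons. The fit was also run on simulated data with 200 changed genes and a dispersion common to all genes. This differs from the data, so the run checked the code and not the error rates here. Alternatives were DESeq2 1.42.0, other scalings, filters and thresholds, a replicate block, and fits omitting 1 library each. The SOX genes and lists were chosen with earlier results of these data known. The SoxC composition and the motif search were added after the data were seen. Named genes were all SOX genes, Pou3f1, genes overlapping them, up to 4 passing genes per list and the 2 genes nearest to each changed SOX gene. Pou3f3 was named after its counts were seen.

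The design text given with the series calls the replicates paired. Deviations from the group means of 13228 genes correlated at 0.253, 0.302 and 0.124 between libraries with the same number. Between the others they correlated from −0.228 to −0.0386. Both are across genes, which are not independent replicates. Since deviations are from the mean of each genotype, the positive values make the others negative on balance, and these are not a separate result.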

Additional observations from a re-analysis of the deposited data

How the results depend on the processing

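The count of 5 changed SOX genes was 4 or 5 under every alternative run. It was 4 to 5 when single libraries were omitted, fits in which 18.9% to 23.4% of all genes passed. With the log2 limit of 1 added, the count was 2 in all alternatives except when every library needed at least 10 counts. That filter left 7 SOX genes tested, without Sox1, and gave 1. Of 115 log2 fold changes of single SOX genes under the alternatives, 110 kept their side of the threshold, 4 lost it (Sox2 and Sox12, each in 2 fits) and 1 gained it (Sox13), all of them in fits that left out a library. At an adjusted p below 0.05, 4 SOX genes passed, without Sox12, beside 19% of all genes. No SOX gene that passed turned direction. Among the further SOX genes and the OCT4-SOX2, early neural and neuronal lists 7 of 16 tested genes passed, beside 24.3% of all genes. From 6 to 8 passed when single libraries were omitted, beside the 18.9% to 23.4% given above. The replicate block changed the call of no SOX gene, with 5 and 2 genes passing as in the fit without it, and called 8 of the 16 list genes, Pou5f1 being added, where 30.3% of all genes passed against 24.3% without it. DESeq2 likewise passed 5 and 2 SOX genes, beside 19.3% of all genes, and the fit without a filter on low counts the same numbers beside 12.4%. The fall in the Sox1 share of SoxB1 was −0.94 percentage points, from −1.08 to −0.83 with each library left out, and −2.16 points when raw counts replaced counts per kb, since the Sox1 exon is longer than those of Sox2 and Sox3. Sox1, Sox15 and Sox21 rest on fewer than 60 counts per library, which limits their precision.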
